A study of Homo sapiens with 8 samples.

Results

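The CpG-rich promoters of protein-coding genes were studied in 8 neuroblastoma (NB) cell lines. A promoter was the window that runs from 1500 bp before to 1000 bp after the canonical transcriptional start site (TSS) of an autosomal protein-coding gene (GENCODE release 44, GRCh37), and it was CpG-rich when its ratio of observed to expected CpG was at least 0.6. Of 18978 promoters 9469 met this rule, 4450 had an intermediate ratio from 0.4 to under 0.6, and 5059 were CpG-poor. The rule used sequence alone and no peak. The median ratio of the CpG-rich promoters was 0.717, with a median of 145 CpG per window and a median GC content of 56.9%.

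DNA of each line was sheared and captured with a methyl-CpG-binding domain before sequencing (MBD-seq), and the readout was whether a promoter was overlapped by at least 1 bp of a peak in the list of that line. IMR-32, N206, CHP-902R and LAN-2 were labelled as *MYCN* amplified (MNA), and SJNB-1, CLB-GA, SH-SY5Y and SK-N-AS as *MYCN* single copy. All are established cultures of tumor cells, each profiled as 1 sample, so that the replicates of each *MYCN* group are different lines, and no normal tissue was included. The results text of the study leaves CHP-902R out when it names MNA lines, while its supplement counts the line as MNA. Several comparisons between the groups are also given without it. The lists held 70816 to 112412 peaks, none with a score under 50, and no read counts, so a promoter without a peak may be one sequenced too thinly.

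Most vertebrate CpG dinucleotides are methylated, and methylated cytosine is lost by mutation, which leaves the genome poor in CpG. CpG islands, many of them at promoters of genes that are active in all cells, kept their CpG because they are unmethylated in the germline. Known exceptions in normal cells are the promoters of germline genes, one allele of imprinted genes and islands on the inactive X chromosome, while tumor cells can gain methylation at further islands.

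Stretches of 6 members carry the patterns described here, and are printed 5′ to 3′ on the strand of the gene with each CpG in capitals. *SLC25A31*, the ADP/ATP carrier of sperm cells, and *LRAT* and *SHCBP1L* had a peak over the TSS in all 8 lines, and the stretch lies under the peaks of all of them. The *SLC25A31* stretch (chr4:128651340-128651554, plus strand) ends at the base before the TSS and holds 21 CpG in 215 bases. The *LRAT* stretch (chr4:155665662-155665961, plus strand) lies 510 to 809 bp downstream of the TSS in the coding sequence of exon 2 and holds 15 CpG. The *SHCBP1L* stretch (chr1:182921903-182922202, minus strand) is coding sequence of exon 1, 99 to 398 bp downstream of the TSS, with 34 CpG. The *HOXD12* stretch (chr2:176964808-176965107, plus strand), 285 to 584 bp downstream of the TSS, holds 27 CpG and covers 296 coding bases of exon 1 and 4 bases of the intron. It lay under a peak in the 4 MNA lines and in no single copy line. The *TGIF2* stretch (chr20:35201264-35201563, plus strand), 736 to 437 bp upstream of the TSS, lay under a peak in the 4 single copy lines and in no MNA line, and holds 17 CpG. *BMI1* (chr10:22609728-22610027, plus strand), the 300 bp before the TSS of a polycomb gene, had no peak in any line and is the densest of the 6, with 43 CpG.
SLC25A31: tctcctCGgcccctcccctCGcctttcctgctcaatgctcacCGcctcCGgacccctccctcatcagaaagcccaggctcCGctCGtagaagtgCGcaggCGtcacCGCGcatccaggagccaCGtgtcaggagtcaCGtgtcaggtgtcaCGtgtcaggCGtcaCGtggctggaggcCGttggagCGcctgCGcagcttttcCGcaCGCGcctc
LRAT: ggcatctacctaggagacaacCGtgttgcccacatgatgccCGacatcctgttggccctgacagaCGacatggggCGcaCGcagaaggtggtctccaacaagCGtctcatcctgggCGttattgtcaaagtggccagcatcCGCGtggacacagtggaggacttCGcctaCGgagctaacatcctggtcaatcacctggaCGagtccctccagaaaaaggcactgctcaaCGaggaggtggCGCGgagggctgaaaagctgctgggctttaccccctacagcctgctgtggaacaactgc
SHCBP1L: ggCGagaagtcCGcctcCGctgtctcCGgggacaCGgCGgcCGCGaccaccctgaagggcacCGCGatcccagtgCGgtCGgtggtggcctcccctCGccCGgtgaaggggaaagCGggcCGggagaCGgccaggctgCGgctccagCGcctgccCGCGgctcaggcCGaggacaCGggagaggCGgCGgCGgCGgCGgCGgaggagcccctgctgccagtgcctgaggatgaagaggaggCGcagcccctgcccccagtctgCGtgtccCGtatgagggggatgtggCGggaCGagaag
HOXD12: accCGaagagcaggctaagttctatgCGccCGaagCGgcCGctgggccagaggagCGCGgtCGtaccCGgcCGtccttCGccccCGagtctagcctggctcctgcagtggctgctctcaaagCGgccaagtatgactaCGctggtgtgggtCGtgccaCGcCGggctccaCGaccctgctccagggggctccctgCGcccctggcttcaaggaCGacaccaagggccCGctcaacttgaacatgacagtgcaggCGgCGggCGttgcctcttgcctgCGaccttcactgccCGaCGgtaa
TGIF2: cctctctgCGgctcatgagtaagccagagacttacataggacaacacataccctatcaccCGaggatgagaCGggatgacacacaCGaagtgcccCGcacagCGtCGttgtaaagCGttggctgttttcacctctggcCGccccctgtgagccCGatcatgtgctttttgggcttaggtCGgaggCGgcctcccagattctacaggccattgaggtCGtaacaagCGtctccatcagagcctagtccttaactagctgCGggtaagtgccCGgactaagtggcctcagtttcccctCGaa
BMI1: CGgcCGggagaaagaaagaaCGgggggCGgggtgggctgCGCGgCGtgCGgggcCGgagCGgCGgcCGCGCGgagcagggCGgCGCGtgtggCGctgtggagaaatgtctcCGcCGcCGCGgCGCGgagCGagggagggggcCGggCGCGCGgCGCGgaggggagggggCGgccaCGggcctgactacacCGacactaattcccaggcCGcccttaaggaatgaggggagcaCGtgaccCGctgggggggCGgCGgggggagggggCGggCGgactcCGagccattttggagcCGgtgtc

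The *BMI1* stretch had 14.3 CpG per 100 bp and the *LRAT* stretch 5.0. *BMI1* was picked for its high ratio among promoters of the gene lists without a peak, so its density follows from that choice. How density goes with peaks cannot be read from these stretches. The *SLC25A31* stretch holds the E-box letters CACGTG at 4 places, each with a CpG in its centre. The same letters were found in the stretch from 250 bp before to 50 bp after the TSS in 10.6% of the members and in 8.70% of all promoters.

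A minority of the members carried a peak in any one line. The number of members with a peak was 2248 in IMR-32, 1527 in N206, 1475 in CHP-902R and 1729 in LAN-2, and 1494 in CLB-GA, 1762 in SH-SY5Y, 1405 in SK-N-AS and 1416 in SJNB-1. IMR-32 was the highest, with 23.7% of the members, and the other 7 lines lay between 14.8% and 18.6%. The MNA lines had 1745 ± 353 such members and the single copy lines 1519 ± 167 (SD, n = 4 each). The difference of 226 did not pass the test (two-sided exact permutation test, p = 0.286). Without IMR-32 the difference was 57.8 (exact p = 0.571), without CHP-902R it was 315 (exact p = 0.171), and with the same number of peaks taken from each list it was −5.50 (exact p = 1.0). With the same number of peaks, IMR-32 still had the most members with a peak, 1902, against 1103 to 1523 in the other lines.

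The peaks in members were a small share of each list. They made up 1.82% ± 0.349 of the peaks (SD, n = 8), from 1.48% in CHP-902R to 2.52% in IMR-32, and the MNA lines (1.78% ± 0.491) and the single copy lines (1.86% ± 0.197) overlapped (two-sided exact permutation test, p = 0.886). A peak over the TSS itself was rarer and was seen in 95 members in SK-N-AS, the fewest, in a median of 136 over the lines, and in 302 members in IMR-32, the most. LAN-2 followed with 273, and the other 6 lines had at most 173.

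**Figure D1:**
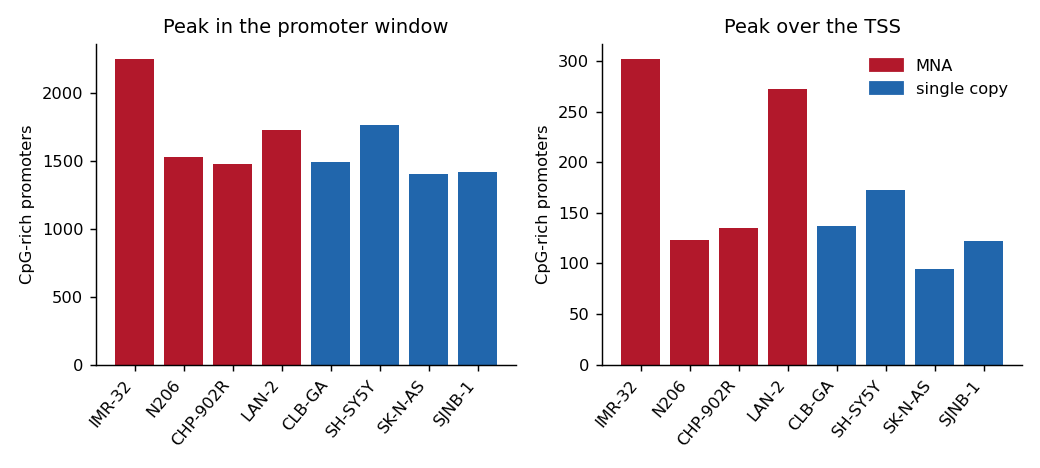
Number of CpG-rich promoters with a peak anywhere in the promoter window (left) and with a peak over the TSS (right), 1 bar per cell line, MNA lines in red and single copy lines in blue. IMR-32 stands highest in both, and LAN-2, with 273 members, is second for the TSS.

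Among the promoter classes, the CpG-rich ones took a middle place. A peak was present at 17.2% ± 2.98 of the CpG-rich promoters, at 19.5% ± 3.21 of the intermediate ones and at 13.3% ± 1.49 of the CpG-poor ones (SD over 8 lines). The CpG-rich class was below the intermediate class in 8 of 8 lines, by 2.26 percentage points (two-sided exact permutation test over sign flips within lines, p = 0.00781, the smallest that 8 lines can give). It was above the CpG-poor class in 8 of 8 lines, by 3.90 points (exact p = 0.00781). The second difference depended on the reach of the window: within 250 bp of the TSS a peak was present at 3.41% ± 1.46 of the CpG-rich, 7.94% ± 2.32 of the intermediate and 6.77% ± 0.839 of the CpG-poor promoters, so that the CpG-rich class fell below the CpG-poor one by 3.37 points (exact p = 0.00781). Among windows in which at least 95% of the 45 bp stretches are unique in the genome, the difference between the CpG-rich and the CpG-poor class was 1.57 points and did not pass the test (exact p = 0.102).

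Within the CpG-rich class, peaks were less frequent at higher ratios. Promoters with a ratio from 0.6 to under 0.7 had a peak in 18.3% ± 3.11 and those of 0.9 and over in 14.6% ± 4.33, a difference of −3.71 points (two-sided exact permutation test, p = 0.0156), negative in 7 of 8 lines, with IMR-32 at 0.0948 as the exception. When a score of at least 100 was asked for, the difference was 0.180 points (exact p = 0.492). The share of promoters with a peak over the TSS was 9.06% at ratios of 0.3 to 0.4, 4.39% at 0.5 to 0.6, 2.51% at 0.6 to 0.7, 1.52% at 0.7 to 0.8 and 0.575% at 0.9 to 1.0, as means over the lines. The 36 promoters of 1.0 and over were at 2.08% for the TSS and 18.1% for the window. The threshold itself marked no step: promoters just inside it, from 0.60 to 0.62, had a peak in 18.1% and those just outside, from 0.58 to 0.60, in 19.4%.

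**Figure D2:**
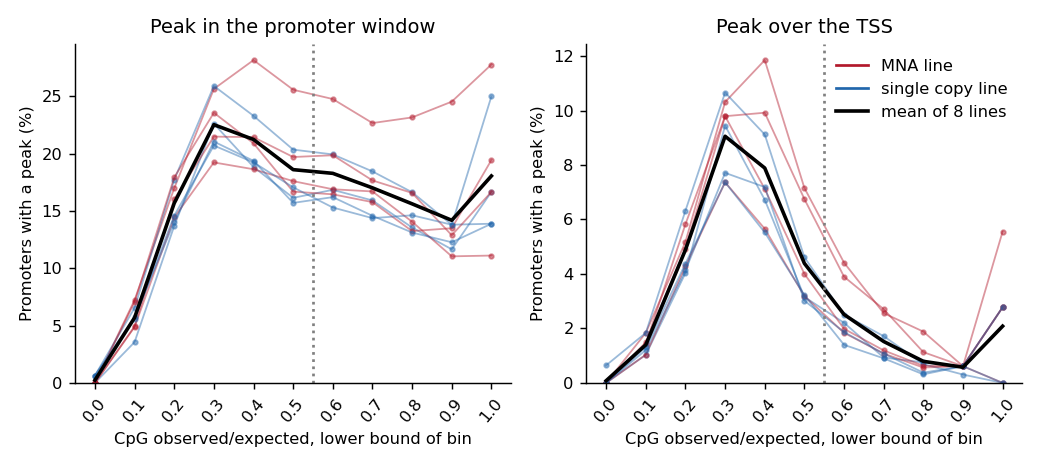
Share of promoters with a peak in the window (left) or over the TSS (right), in per cent, against the CpG observed/expected ratio in bins of 0.1 named by their lower bound (the last bin holds the 36 promoters of 1.0 and over), 1 thin line per cell line, the mean in black and the rule's threshold of 0.6 dotted. The mean for the TSS has its highest point, 9.06%, in the bin from 0.3 and is at 0.575% in the bin from 0.9.

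The peaks of the members lay away from the TSS. On average over the lines, 1.92% ± 0.867 of the bases within 250 bp of the TSS were under a peak, against 5.97% ± 0.990 of those from 1500 to 1000 bp upstream (SD, n = 8). The difference of −4.05 points had the same sign in 8 of 8 lines (two-sided exact permutation test, p = 0.00781). It was −0.328 points at scores of 100 and over and −1.16 points against the bases 500 to 1000 bp downstream (exact p = 0.00781 for both). Cover was 6.09% in the 100 bp step that starts 1200 bp upstream, 4.03% in the one from 600 bp, 2.19% in the one from 300 bp and 1.87% in the first 100 bp of the gene, and came back only to 3.54% at the downstream end of the window. The CpG-poor promoters had the opposite course, with 1.81% at the upstream end and 4.80% in the first 100 bp of the gene.

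Of the members with a peak, 62.4% ± 5.40 had it only further than 250 bp upstream, 17.2% ± 3.16 only further than 250 bp downstream, and 19.1% ± 4.61 within 250 bp of the TSS (SD, n = 8). A peak over the TSS was present in 10.1% ± 3.0 of them. IMR-32 had the largest share within 250 bp, 27.1%, and the smallest share that lay only upstream, 51.1%.

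**Figure D3:**
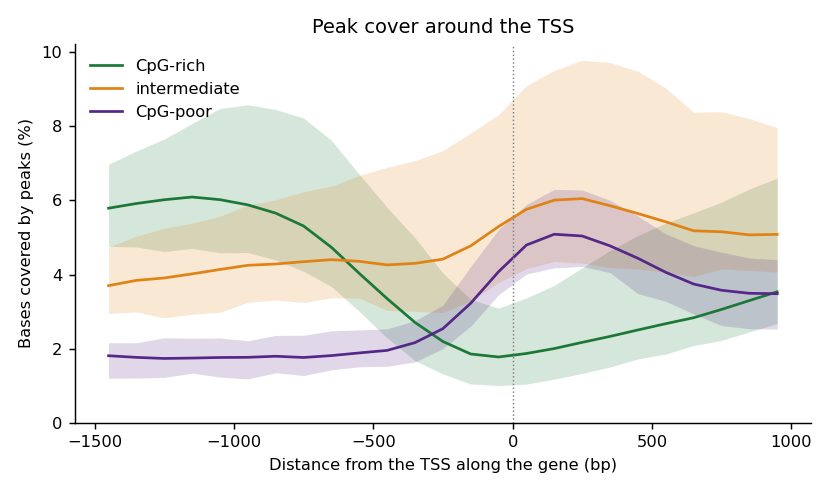
Per cent of bases under a peak in 100 bp steps along the promoter window, by distance from the TSS in bp, as the mean of the 8 lines (line) and their range (shading), for the 9469 CpG-rich, 4450 intermediate and 5059 CpG-poor promoters. The CpG-rich curve has its low point at the TSS, where the other classes rise.

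Within the members that had a peak, the bases under it held fewer CpG than the rest of the window. The density was 5.54 ± 0.288 CpG per 100 bp under peaks and 6.25 ± 0.147 outside them (SD, n = 8), lower under peaks in 8 of 8 lines (difference −0.707, two-sided exact permutation test, p = 0.00781). When a score of at least 100 was asked for, the sign turned: the bases under peaks held 0.564 CpG per 100 bp more than the rest (exact p = 0.00781). High scores were also more frequent among the peaks in members, of which 24.1% ± 5.04 reached 100, than among the other autosomal peaks, of which 15.8% ± 3.69 did (difference 8.28 points, higher in 8 of 8 lines, exact p = 0.00781). In each of the 8 lists the peaks over a member's TSS had a higher median score than the other peaks in members. The medians were 86.9 against 66.8 in SK-N-AS and 136 against 75.9 in LAN-2.

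Members that share their start region with a second gene had fewer peaks. In 1413 members another protein-coding gene started on the other strand within 1000 bp. They had a peak in 10.5% ± 1.99, against 18.4% ± 3.18 of the other 8056 members (SD, n = 8), lower in 8 of 8 lines (difference −7.91 points, two-sided exact permutation test, p = 0.00781). In 66.3% of the bidirectional members no line had a peak, against 44.8% of the others.

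The letters bound by 4 factors of active promoters were searched on both strands from 250 bp upstream to 50 bp downstream of the TSS. All 4 hold a CpG, and a stretch could count for more than 1 of them. The NRF1 motif was in 2.34% of the members and 1.71% of all promoters, the CRE letters TGACGTCA in 3.59% and 2.71%, and the ETS letters ACTTCCGG in 8.04% and 6.29%. A peak over the TSS was present in 0.969% ± 0.409 of the members with the ETS letters and 1.87% ± 0.845 of those without, lower in 8 of 8 lines (difference −0.898 points, exact permutation test, p = 0.0313 after Benjamini-Hochberg adjustment over the 4 motifs). For NRF1 the difference was −0.628 points (exact permutation test, adjusted p = 0.0313), for CRE −0.642 points (adjusted exact p = 0.0833) and for the E-box −0.149 points (adjusted exact p = 0.109). In a line, the 1.18% of the 222 NRF1 members with such a peak are very few promoters. The ETS and NRF1 calls did not hold at scores of 100 and over (exact permutation test, adjusted p = 0.109 for both). Nor did they hold for a peak anywhere in the promoter window (adjusted exact p = 0.125 for ETS and 0.508 for NRF1). Among members with a ratio of at least 0.75 the ETS difference was 0.00866 points (adjusted exact p = 0.977) and the NRF1 call was lost (adjusted exact p = 0.135).

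Over the 8 lines, 4919 members (51.9%) had a peak in at least 1 line, against 49.9% of all promoters, and 4550 (48.1%) had none, against 50.1% of all promoters. A peak in exactly 1 line was seen for 1805 members (19.1%, all promoters 18.3%), 510 of them in IMR-32 and 142 to 238 in each of the other lines. Without IMR-32 the number of members with no peak was 5060, for which the share over all promoters is not given. In all 8 lines 93 members (0.982%) had a peak, against 0.991% of all promoters. These shares were close to those of all promoters, but for the TSS they were not: 564 members (5.96%) had a peak over the TSS in at least 1 line, against 11.3% of all promoters, of which the members are a part.

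The sets of members with a peak overlapped in part from line to line. A pair of lines shared 0.264 of its joint members on average (Jaccard index), from 0.225 for SK-N-AS and SJNB-1 to 0.312 for N206 and LAN-2, which had 774 members in common. The mean was 0.266 between lines of the same *MYCN* group and 0.262 between groups (difference 0.00344, two-sided exact permutation test, p = 0.343). SK-N-AS was in the 6 pairs with the lowest index among those that do not include IMR-32, and its pair with IMR-32 had 0.230. By chromosome, the mean share of members with a peak was highest on chromosomes 7 (21.7%), 15 (21.1%) and 20 (20.6%) and lowest on chromosomes 9 (12.4%) and 4 (13.8%).

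A peak over the TSS in all 8 lines was found at 15 members (0.158%, all promoters 0.169%). In 46.7% of these 15 windows at least 95% of the 45 bp stretches were unique. Over all members this share was 76.2%, and over all promoters 72.0%. Of the 15, 4 were in the list of germline genes (26.7%), which held 19 of the 9469 members. *LRAT*, which esterifies retinol, had the highest mean percentile of its score within the lists. The scores are printed per line, but they grow with depth and rank peaks only inside a list. For *LRAT* they were 279 in IMR-32, 239 in N206, 245 in CHP-902R and 319 in LAN-2, and 256.3 in CLB-GA, 183 in SH-SY5Y, 295 in SK-N-AS and 274 in SJNB-1. The lowest of its percentiles within a list was 99.01, in SH-SY5Y. The part under a peak in all lines (chr4:155665104-155666144) measured 1041 bp and contained the TSS.

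The scores of *SLC25A31* were 175, 207, 175 and 154 in IMR-32, N206, CHP-902R and LAN-2, and 219, 148, 162 and 166 in CLB-GA, SH-SY5Y, SK-N-AS and, as the last, SJNB-1. Within the lists these were percentiles of 95.5 to 99.4 in the MNA lines and 96.9 to 99.8 in the single copy lines, which overlapped. *BOLL*, an RNA-binding protein of the DAZ family needed in meiosis, had 169, 97.3, 186 and 202 in the MNA lines in the same order, and 126, 205, 114 and 139 in the single copy lines. The lowest percentile of *BOLL* within a list was 84.6, in N206. *STK31*, a kinase of the testis, had percentiles from 70.8 in SK-N-AS to 98.9 in SH-SY5Y.

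The other members of this set that rank highest were *SHCBP1L*, with a median score of 159, *PAPOLB*, the poly(A) polymerase of the testis, with 102 to 337, and *SPACA1*, a membrane protein of the sperm acrosome, with 72.4 to 210. Then came *TSSK6*, a kinase of maturing sperm, with 88.2 to 205.9, *HDGFL1* with 80.4 to 202, *SOHLH2*, a transcription factor of early germ cells, with 78.4 to 157, *FTMT*, mitochondrial ferritin, with 56.9 to 208, and *QRICH2*, a protein of the sperm flagellum, with 78.2 to 208. The remaining 3 were *TMEM225B*, *RTKN* and *CPQ*, each with its lowest score under 61. *TSSK6* starts next to *NDUFA13*, a subunit of respiratory complex I on the other strand, and the peaks that reached the TSS of *TSSK6* in 8 lines reached that of *NDUFA13* in none.

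Of 45 germline genes with a promoter window 19 were CpG-rich, and 9 of these had a peak in all 8 lines. Per line, 15 of the 19 had a peak in IMR-32, 16 in N206, 13 in CHP-902R and 16 in LAN-2, and 17 in CLB-GA, 13 in SH-SY5Y, 11 in SK-N-AS and 13 in SJNB-1. The mean was 75.0% ± 10.8 (SD, n = 8), beside 17.2% over all CpG-rich promoters, and the groups overlapped. For a peak over the TSS the mean was 52.6%, beside 1.80% over all members, and 11 of the 19 had one in at least 4 lines (all members 1.43%, all promoters 2.65%). *BOLL*, *SLC25A31*, *STK31* and *SOHLH2* had it in all 8 lines, *MAJIN*, which ties telomeres to the nuclear envelope in meiosis, and *SYCP2* and *SYCP3* of the synaptonemal complex in 7, and *DAZL* and the meiotic cohesin *SMC1B* in 6. *TDRD9* and *MOV10L1*, which act in the piRNA pathway, had a peak in 7 and 6 lines. At the other end were *DMC1* and *REC8*, with a peak in 3 and 2 lines, and *MEIOB*, with none, although all 3 act in meiosis.

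The same sort of gene appeared within lists named for other functions. *SOX30*, a regulator of spermatogenesis, had a peak in 8 lines and over the TSS in 7, and was the sole one of 67 CpG-rich forkhead, SOX, T-box and GATA genes with a peak in all 8. *PSMA8*, the proteasome subunit of the testis, had a peak in 8 lines and over the TSS in 7. The other 23 CpG-rich proteasome subunits had none over the TSS in any line, beside 5.96% of all members with one in at least 1 line. *H2AC1* and *H2BC1*, the histone pair of the testis, had a peak over the shared start region in IMR-32, SH-SY5Y, N206 and CHP-902R. These genes were singled out after their values were seen.

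Imprinted genes, of which 28 were CpG-rich, had a peak in 44.2% ± 6.31 of cases (SD, n = 8), beside 17.2% over all members, from 9 genes in SK-N-AS to 14 in IMR-32, CHP-902R and SJNB-1. For the TSS the mean was 16.1%, beside 1.80% over all members. *GRB10*, an adaptor that restrains insulin signalling, and *FAM50B* had a peak in 8 lines, *SGCE* and *PEG10*, neighbours that share a start region, in 7, and *ZNF331*, *PEG3*, *ZIM2*, *NNAT*, *DLK1* and *GNAS* in 6. *ZNF331* had the peak over the TSS in all 6. The peaks of *GRB10* covered the TSS in SH-SY5Y, CHP-902R, SK-N-AS and SJNB-1 and lay beside it in the others, and its percentiles within the lists ran from 22.6 in LAN-2 to 97.2 in SH-SY5Y. *CDKN1C*, *PPP1R9A*, *RB1* and *ZDBF2* had no peak in any line. MBD capture does not tell the alleles apart.

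The HOX genes, which pattern the body axis, had the largest spread between lines of all the gene lists. Of 25 CpG-rich HOX promoters, 15 had a peak in IMR-32, 5 in N206, 1 in CHP-902R and 4 in LAN-2, and none in CLB-GA, 3 in SH-SY5Y, 1 in SK-N-AS and 3 in SJNB-1. The mean of 16.0% over the 8 lines, from 0 to 60%, was near the 17.2% of all members. In IMR-32, 60% of the HOX promoters and 23.7% of all members had a peak. In 9 of the 25 IMR-32 was the only line with a peak, as it was in 510 of all 9469 members. Among the 9 were *HOXB4*, *HOXB5*, *HOXB7*, *HOXB8* and *HOXB9* of the HOXB cluster, and *HOXC12*. A peak over the TSS was present at 9 HOX genes in IMR-32 and at up to 3 in any other line. IMR-32 also had the highest count in several other lists, beside its 23.7% over all members. It had 31 of 100 other homeobox and PAX promoters against 3 to 14 in the other lines. Of 67 forkhead, SOX, T-box and GATA promoters it had 26 against 6 to 13. For potassium channels it had 23 of 47 against 7 to 11, and for G protein-coupled receptors 23 of 46 against 8 to 16. It was not the highest in every list, as CLB-GA led the germline genes with 17 of 19. The part of the higher share of IMR-32 over all members in these counts was not tested.

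**Figure D4:**
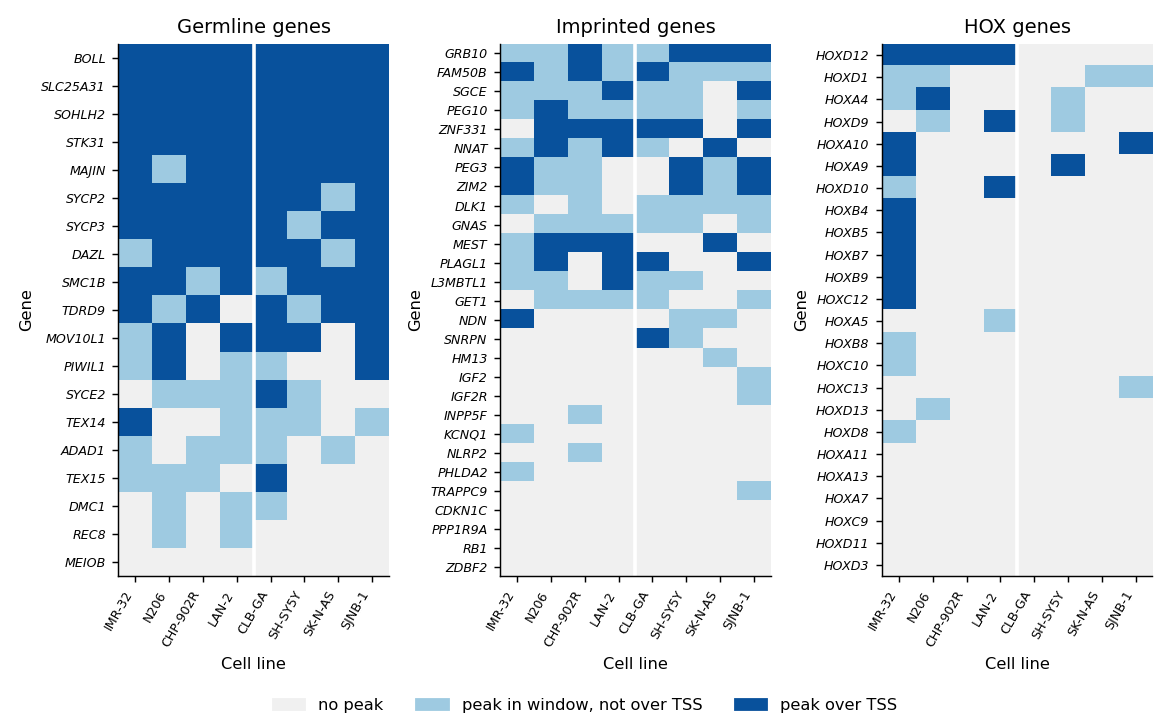
Peaks at CpG-rich promoters of the germline, imprinted and HOX lists (1 HOX gene is not shown), 1 row per gene and 1 column per line (MNA left of the white bar, single copy right of it), in grey for no peak, light blue for a peak in the window that misses the TSS and dark blue for a peak over the TSS. Germline genes are dark across lines, imprinted genes are mixed, and several HOX genes are filled in IMR-32 alone.

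Replication-dependent histone genes, 57 of them CpG-rich, had a peak in 15 cases in IMR-32, 9 in N206, 8 in CHP-902R and 12 in LAN-2, and in 3 in CLB-GA, 6 in SH-SY5Y, 4 in SK-N-AS and 4 in SJNB-1. The MNA lines were at 19.3% and the single copy lines at 7.46% on average, beside 18.4% and 16.0% over all members, and the 2 groups did not overlap. The nearest counts were 8 in CHP-902R and 6 in SH-SY5Y. No p is given for a list, and many lists were looked at. *H3C3*, the gene called HIST1H3C before, had a peak over the TSS in IMR-32 (score 70.8), N206 (103) and LAN-2 (65.5) and none in the other 5 lines, CHP-902R included. The study's supplement, however, lists CHP-902R among the lines with *HIST1H3C* methylated by methylation-specific PCR. The missing peak thus does not show that this promoter is unmethylated in CHP-902R. *H2BC3*, *H3C8* and *H2BC10* had a peak in the same 3 lines and in no other. Neighbours in the histone clusters can share a peak. *H1-1* and *H4C7* had a peak in 6 lines, and 36 of the 57 in none.

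Few members separated the *MYCN* groups. A peak in all 4 MNA lines and in no single copy line was found at 9 members (0.095%, all promoters 0.0843%), and the reverse at 5 (0.0528%, all promoters 0.0474%). None of the 14 passed a two-sided Fisher's exact test after Benjamini-Hochberg adjustment over all 18978 promoters: the smallest unadjusted p of 0.0286, which these 14 reached, became 1.0. With 4 against 4 lines no promoter can have a smaller p, so the design left no room for a call. Over 7 lines, without CHP-902R, 38 members had a peak in the MNA lines alone (0.401%, all promoters 0.353%), 4 of them the histone genes *H2BC3*, *H3C3*, *H3C8* and *H2BC10*, and 7 in the single copy lines alone (all promoters 0.0896%).

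*HOXD12*, which acts in limb patterning, was the only one of the 9 MNA members with a peak over the TSS in each of the 4 lines. Its scores were 123 in IMR-32, 141 in N206, 223 in CHP-902R and 207 in LAN-2, with no peak in the single copy lines. *RAB34*, a small GTPase needed for cilia (window chr17:27043886-27046386), was its counterpart, with a peak over the TSS at scores of 156 in CLB-GA, 130 in SH-SY5Y, 117 in SK-N-AS and 130 in SJNB-1 and none in the MNA lines. Of the 14 these 2 alone still separated the groups when a score of at least 100 was asked for. *CLEC14A* and *CATSPER2* then joined *HOXD12* on the MNA side, but had peaks under that score in single copy lines too.

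The other MNA members lay mostly off the TSS. *ABCC9*, a regulatory subunit of potassium channels that sense ATP, had scores of 125, 76.1, 153 and 96.2 in IMR-32, N206, CHP-902R and LAN-2. The N206 peak lay downstream of the TSS and the other 3 upstream of it, so the lines did not share a stretch. *ARIH2*, a ubiquitin ligase, had 116, 104, 64.2 and 126 in the same order, with peaks that entered the window at its upstream edge. *TMDD1*, *ZBTB43*, *PTGFRN*, *TAF5*, a subunit of TFIID, *NCAM2*, a neural adhesion molecule, and *TTC17* had median scores of 65.9 to 92.0. *TMDD1* had its peak over the TSS in 3 lines and *NCAM2* in LAN-2 alone.

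On the single copy side, *POLR2I*, a subunit of RNA polymerase II, had scores of 63.5 to 125, *ZNF469* 65.4 to 123, and *TGIF2*, a repressor in TGF-beta signalling, 101 in CLB-GA, 87.8 in SH-SY5Y, 50.0 in SK-N-AS and 84.4 in SJNB-1. The SK-N-AS peak of *TGIF2* was thus close to the lowest score of its list. *TGIF2-RAB5IF*, a read-through gene, was called by the same peaks as *TGIF2* and is no separate case.

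Several other lists had a larger share than the 17.2% of all members. Clustered protocadherins, cell-surface molecules of neurons, had a peak in 43.8% ± 12.4 of 18 CpG-rich promoters (SD, n = 8), from 4 in SH-SY5Y to 12 in CLB-GA, with *PCDHAC2* in 7 lines and *PCDHGA5* over the TSS in 5. Epithelial identity genes reached 42.3% ± 10.9 of 13, with *CLDN3* in 6 lines and *EPCAM* in 5, and *ESRP2*, a splicing factor of epithelia, had the peak over the TSS in all 4 of its lines. G protein-coupled receptors had 30.4% ± 9.79 of 46, with *GPR75* over the TSS in 7 lines, *ADRA2B* and *ADRA1D* in 7 lines and *CNR1* in 4. The DNA methylation enzymes and readers had 28.1% ± 10.9 of 12, led by *MBD1* in 7 lines and *DNMT3A* in 5, while *TET1*, *TET2*, *TET3* and *DNMT3B* had none. No line had a peak over a TSS of this short list, and over all members 5.96% had one in at least 1 line.

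The WNT antagonists, with 30.4% ± 9.16 of 14, had no peak over a TSS either. Beside the 5.96% of all members with one in at least 1 line, none among so few promoters does not set either list apart. *DKK3*, *WIF1* and *KREMEN1* had a peak in 5 lines and *SFRP1* in 4, all beside the TSS. Retinoid genes had 29.2% ± 13.4 of 12, with *RARRES1* and *CYP26C1* in 5 lines, and IMR-32 was the highest with 7 of 12. Potassium channels had 23.4% ± 10.7 of 47, from 7 in SJNB-1 to 23 in IMR-32, with *KCNJ11*, a subunit of channels that sense ATP, in 8 lines and over the TSS in none.

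Other lists had a smaller share or one close to it. Replication licensing genes had a peak in 6.73% ± 6.42 of 13, semaphorins, plexins, ephrins and netrins in 9.23% ± 5.31 of 42, and cell cycle inhibitors and the p53 family in 9.38% ± 7.76 of 20. No licensing gene had a peak in 4 or more lines, which 13.9% of all members and 13.5% of all promoters had. Ribosomal proteins had a peak in 16.5% ± 4.93 of 62, near the 17.2% of all members. None of them had it over the TSS in any line, beside 5.96% of all members with one in at least 1 line. The same held for the TSS of the 46 mitochondrial ribosomal proteins, at 11.7% ± 3.84, and of the 43 respiratory chain subunits, at 16.9% ± 5.24. *RPL24* had a peak beside the TSS in 7 lines and *MRPS6* in 8, the latter in a window it shares with *SLC5A3*.

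**Figure D5:**
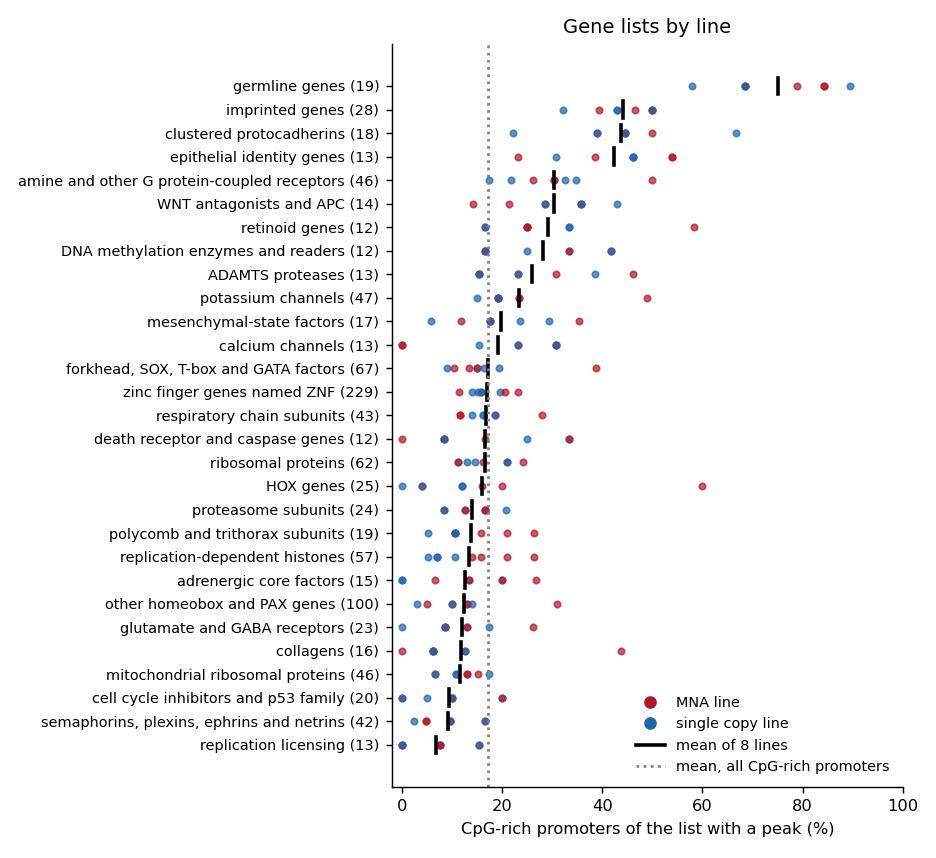
Per cent of the CpG-rich promoters of each gene list that had a peak, 1 dot per line (MNA red, single copy blue), with the mean of the 8 lines as a black bar, the mean over all CpG-rich promoters (17.2%) dotted, and the number of CpG-rich promoters of the list in brackets, for lists of at least 12. Germline genes lie furthest to the right at 75.0%, and the lone red dots far from the rest in the HOX, homeobox and collagen rows are IMR-32.

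Of the genes that the study named beside MBD-seq, methylation-specific PCR or mRNA results, 8 were CpG-rich and are given here, and since these were picked with these lines in view, their counts are no independent evidence. *GRB10* had a peak in 8 lines, *SOWAHA* and *GNAS* in 6, *TNFRSF10A*, a receptor of the death ligand TRAIL, and *CNR1*, the cannabinoid receptor of the brain, in 4, *H3C3* in 3, and *KCND2* and *PLXNC1* in none. *SOWAHA* lacked a peak in CLB-GA and SJNB-1, and its peaks, with scores from 52.2 to 224, lay off the TSS. The scores of *TNFRSF10A* were 54.3 in SJNB-1, 63.8 in CLB-GA, 91.8 in SH-SY5Y and 134 in CHP-902R, over the TSS in the last pair only. Peaks of *CNR1* were found in IMR-32, SH-SY5Y, CHP-902R and LAN-2, 3 MNA lines and 1 single copy line.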

How the data were processed

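MBD-seq peak lists of 8 NB cell lines, 1 sample each, were used. Per the labels and the study's methods, Bowtie 0.12.7 was used by the authors to place read pairs on GRCh37, and MACS to call peaks, line by line and without pooling. The options and an input control are not given in the sources used here. The deposited lists give the position of each peak and a score, which follows from its p-value, and grows with depth. Scores of different lines are therefore printed as values and set against each other only as percentiles within a list.

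The members and the gene lists were chosen with earlier results of these data known. Promoter windows and CpG counts came from GENCODE release 44 in GRCh37 coordinates and the GRCh37 sequence, read with Python 3.11.15, numpy 2.4.6, pandas 2.3.3 and numba 0.67.0. Groups were taken from the *MYCN* label. Two-sided exact permutation tests were used across lines, and across promoters Fisher's exact test (scipy 1.17.1), adjusted by Benjamini-Hochberg over all promoters or over the 4 motifs. A peak of a line can lie in more than 1 member, as 5.17% to 7.22% of the peaks in members did. The step that finds separating promoters was tested on simulated data and recovered all 200 planted members of 18978 windows. The planted windows lay apart from other promoters, had a peak in every MNA line and received no noise. The run thus checks the counting alone and not how well such members are found in real lists.

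Named were up to 12 members with a peak over the TSS in all lines, ordered by the mean percentile of the score, up to 10 per direction that separate the groups, the study's genes, and members of gene lists with peaks in most lines. The last 3 of the 15 members with a peak over the TSS in all lines, *TMEM225B*, *RTKN* and *CPQ*, fall outside this rule and were named after their values were seen, as were *CLEC14A* and *CATSPER2* and the genes at the low end of lists. Sequences were printed for the first members of each kind whose shared peak held at least 50 bp of the window outside UTRs. *BMI1* was instead picked for its high ratio among gene-list members without a peak in any line, and the bases before its TSS were printed.

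Results were recomputed with scores of 100 and over, an equal number of peaks per line (70816), the peak midpoint in the window, windows of 250 bp each side, a ratio of at least 0.75, windows with at least 95% unique 45 bp stretches, and each line left out. For the motifs, a peak anywhere in the promoter window was taken in place of the windows of 250 bp each side. Some genes of the lists are not reported here by name. Expression arrays and methylation-specific PCR were not analysed here.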

Additional observations from a re-analysis of the deposited data

Results flagged for a closer look

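CpG-rich promoters took 2.52% of the IMR-32 peaks, far above the other 3 MNA lines, which lay between 1.48% and 1.62% (gap over range 0.866, past Dixon's critical value for 4 samples). Of 26 groups of 4 examined this was the one found, and chance alone marks about 1 in 20.

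The excess of high scores among the peaks in members was larger in the MNA lines. Each result tested by sign flips within lines was also compared between the *MYCN* groups. This one and the next were kept because their p was under 0.05 in an exact permutation test. Neither p was adjusted for the number of comparisons, and neither comparison was repeated without CHP-902R. The share of peaks that reach a score of 100 was higher in members than elsewhere by 10.1 ± 1.15 points in MNA lines and by 6.42 ± 1.65 points in single copy ones (SD, n = 4 each), a difference of 3.70 points (two-sided exact permutation test, p = 0.0286, the smallest that 4 against 4 lines can give). The MNA lists hold more peaks, 97901 ± 10507 against 79910 ± 7001, and the part of this in the difference was not tested.

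The lower share of peaks over the TSS in members with the ETS letters ACTTCCGG was also larger in the MNA lines, at −1.36 ± 0.447 points against −0.441 ± 0.187 points (difference −0.914, exact permutation test, p = 0.0286, the smallest possible). A peak over the TSS was present in 2.20% of all members in MNA lines and 1.39% in single copy ones, and the part of this in the difference was not tested.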

How the results depend on the processing

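When a score of at least 100 was asked for, the difference between *MYCN* groups in the share of peaks lying in members was 0.186 (exact permutation test, p = 0.743), that between the highest and the lowest ratio 0.180, that in CpG under and outside peaks 0.564, and those for NRF1 and ETS −0.605 and −0.446. The separating members were then 3 for MNA, 1 for single copy and 4 in all, 14 members had a peak in all 8 lines and 7663 in none. With an equal number of peaks, the members with a peak differed by −5.50 between groups. With the midpoint, 2 members separated the single copy lines. Within 250 bp of the TSS, the share of peaks in members differed by 0.0640 between groups, and CpG-rich and CpG-poor promoters by −3.37. Here 2, 1 and 3 members separated the groups, 34 had a peak in all lines and 8337 in none. For the motifs, a peak anywhere in the promoter window was counted in place of one over the TSS. Members with and without a motif then differed by −0.525 (NRF1), −1.40 (ETS) and 1.30 (E-box), none past the threshold (exact permutation test, adjusted p = 0.508, 0.125 and 0.125). At a ratio of at least 0.75 the NRF1 difference was −0.635 and the ETS difference 0.00866, neither past the threshold, with 3, 1 and 4 separating members, 33 members in all lines and 1792 in none, out of fewer members. Among 95% unique windows the CpG-rich and CpG-poor classes differed by 1.57 and the E-box difference was 0.261. Shares over all promoters are not given at these settings. The counts of members therefore show how the calls depend on the setting and not a trait of the members.

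With each line left out, the separating members ranged from 29 to 45 in all, from 14 to 38 for MNA and from 7 to 19 for single copy, since fewer lines have to agree: 29 without CLB-GA or LAN-2, 30 without SH-SY5Y, 34 without SK-N-AS, 35 without N206, 37 without IMR-32, 40 without SJNB-1 and 45 without CHP-902R. Only for the lines without CHP-902R are shares over all promoters given, so the other counts are no result about the members. The share of peaks in members differed by −0.321 to 0.0255 between groups and the overlap within minus between groups by −0.00300 to 0.00823, neither past the threshold. The NRF1 difference ranged from −0.725 to −0.383, the ETS difference from −0.990 to −0.776, both past the threshold in 2 of 8 cases, and the CRE difference from −0.804 to −0.479, past the threshold only without SJNB-1. The other results kept their direction and side of the threshold with each line left out. No paired comparison of the *MYCN* groups was possible because they are made of different lines, which the labels neither pair nor number. The lists hold no counts, so how depth limits the absence of a peak is unknown.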

Other observations

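The 93 members with a peak in all 8 lines also held germline genes outside the lists used. *TDRD6*, *MEIOC*, *HSF5*, *TSSK3*, *SPESP1*, *PFN3*, *NKAPL* and *DPPA5*, known from germ cells, sperm or early embryos, were among them, as were *CLDN23*, *CLDN11* and *AQP5*, a pair of claudins and a water channel. They were picked after the list was seen and nothing was tested on them.

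Some members of the 93 came in neighbouring pairs that share peaks, among them *MRPS6* with *SLC5A3*, *TSSK6* with *NDUFA13* and *SMC1B* with *RIBC2*. Of the 93, 11.8% were bidirectional, against 20.6% of the 4550 members with no peak, and 66.7% had at least 95% unique 45 bp stretches, against 83.3% of those with no peak.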
